A study of Mus musculus with 20 samples.

Results

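Hepatic stellate cells were followed here through 9 of their marker genes, Lrat, Ngfr, Pdgfrb, Hgf, Reln, Colec11, Ecm1, Des and Rgs5, taken as a named list of hepatic stellate cell genes with no threshold on a measured value, though with earlier results of these data known. The count table held 55487 genes, of which 16312 passed the filter on low counts and were tested, and all 9 marker genes were among them. Stellate cells lie between the sinusoidal endothelium and the hepatocytes, store vitamin A as retinyl esters in lipid droplets, and secrete growth factors and matrix proteins. In an injured liver they lose their retinoid droplets and turn into contractile cells that lay down collagen. PLIN2 (perilipin 2), the gene product removed in this study, coats lipid droplets.

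The material was liver RNA of female mice, 15 weeks old and on the C57BL/6N background, sequenced as strand-specific mRNA libraries. There were 4 groups of 5 libraries: Plin2-null mice fasted for 24 h, Plin2-null mice fed chow, Plin2+/+ mice fasted for 24 h and Plin2+/+ mice fed chow. Labels of the Plin2-null libraries state the feeding state only, and these 10 libraries were read as Plin2-/- by elimination, since the design text names no other genotype. Each library has a title code of its own, whose parts the labels do not explain, and no label names a litter, day or batch, so a p-value here speaks of sample-to-sample spread, which may be partly technical.

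The Plin2 transcript itself averaged 90.5 ± 22.6 CPM (read counts scaled to a common library size by TMM) in Plin2-null fasted, 19.7 ± 6.96 in Plin2-null fed, 1494 ± 240 in Plin2+/+ fasted and 260.3 ± 58.2 CPM in Plin2+/+ fed livers (SD, n = 5 each). Total counts ran from 25506471 to 65579038 per library, and the 9 marker genes together took 6510 to 21947 of them. The first principal component, which held 49.4% of the variance of log2 CPM, followed the feeding state. Within groups, libraries differed in how log2 CPM changed with the GC content of the transcript, by slopes between −0.26 and 0.32 per 10 percentage points of GC.

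Marker genes that fell in fasted livers of both genotypes (Lrat, Ngfr and Reln) are shown by the sequence before their start. Those that differed between the fasted genotypes (Ngfr, Colec11 and Des) are shown too, so that members called in the same comparison can be set side by side. Each sequence covers 250 to 41 bases before the RefSeq start on GRCm38.p6, is written 5′ to 3′ on the gene's own strand, and has E-boxes (CANNTG) and GC boxes (GGGCGG, on either strand) in capitals. The windows are chr3:82904015-82904224 on the minus strand for Lrat, chr11:95587739-95587948 on the minus strand for Ngfr, chr5:22344746-22344955 on the minus strand for Reln, chr12:28623371-28623580 on the minus strand for Colec11, and chr1:75360042-75360251 on the plus strand for Des.
Lrat: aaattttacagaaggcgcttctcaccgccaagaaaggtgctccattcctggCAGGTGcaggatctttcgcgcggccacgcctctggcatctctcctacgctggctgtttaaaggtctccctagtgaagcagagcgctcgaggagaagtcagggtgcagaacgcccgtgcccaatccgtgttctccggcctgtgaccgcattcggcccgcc
Ngfr: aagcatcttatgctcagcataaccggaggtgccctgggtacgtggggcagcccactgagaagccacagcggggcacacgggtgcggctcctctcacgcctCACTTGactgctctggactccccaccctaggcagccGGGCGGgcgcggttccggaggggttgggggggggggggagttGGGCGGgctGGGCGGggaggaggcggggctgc
Reln: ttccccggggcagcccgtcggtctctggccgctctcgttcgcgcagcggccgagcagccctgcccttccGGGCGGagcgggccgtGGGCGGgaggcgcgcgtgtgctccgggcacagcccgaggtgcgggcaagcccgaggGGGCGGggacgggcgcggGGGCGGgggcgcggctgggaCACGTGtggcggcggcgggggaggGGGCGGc
Colec11: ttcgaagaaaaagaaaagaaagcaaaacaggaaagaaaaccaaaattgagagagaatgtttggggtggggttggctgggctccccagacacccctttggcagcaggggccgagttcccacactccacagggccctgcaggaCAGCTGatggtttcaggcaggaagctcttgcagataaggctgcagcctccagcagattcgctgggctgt
Des: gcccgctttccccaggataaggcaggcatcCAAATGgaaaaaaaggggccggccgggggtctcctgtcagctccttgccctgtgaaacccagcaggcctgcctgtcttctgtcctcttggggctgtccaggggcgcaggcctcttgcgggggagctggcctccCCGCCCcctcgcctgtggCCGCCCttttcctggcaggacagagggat

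The windows of Reln and Ngfr were rich in G and C, with a GC content of 82.4% in Reln and 71.0% in Ngfr, beside a median of 51.9% over 32851 promoter windows of the same length. Des had 66.2%, Lrat 59.5% and Colec11 53.8%. GC boxes numbered 5 in Reln, 3 in Ngfr and 2 in Des, and none was in the window of Lrat or Colec11, nor in those of Ecm1, Hgf and Rgs5. Of all windows 26.7% held a GC box. An E-box, which 60.7% of all windows held, stood in 7 of the 8 marker genes with a window, the exception being Rgs5, and in 1 of both windows of Hgf. The homeobox core TAATTA (4.37% of all windows), the nuclear receptor half-site AGGTCA (12.0%) and the cyclic AMP response element TGACGTCA (0.998%) were in none of these windows, and the AP-1 site TGANTCA (5.84%) was in that of Ecm1 alone. A match describes these letters only, and Pdgfrb is not shown.

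Per gene length, in the deposited TPM (transcript abundance per library, corrected for length), Ecm1 was the most abundant marker gene. Ecm1, which encodes a secreted glycoprotein of the extracellular matrix, averaged 112.4 TPM over the 20 libraries, with a range of 65.0 to 151.2. It made up 37.5% to 62.1% of the summed TPM of the 9 genes, and that sum ran from 135.5 to 324.1. Colec11 followed with 41.6, Rgs5 with 30.0, Lrat with 12.7, Reln with 9.59, Hgf with 8.67, Pdgfrb with 5.38, Ngfr with 2.47 and Des with 1.71 TPM. The step from Ecm1 to Colec11 held in 20 of 20 libraries and that from Colec11 to Rgs5 in 16 of 20. Neighbours lower in the order were less well separated in places, since Reln exceeded Hgf in 12 of 20 libraries and Ngfr exceeded Des in 12 of 20. The order differed in fasted livers of both genotypes. The mean of Hgf was above that of Reln in Plin2-null fasted (7.75 against 6.68 TPM) and in Plin2+/+ fasted livers (8.31 against 6.71 TPM). The mean of Des was above that of Ngfr in Plin2-null fasted (1.92 against 1.58 TPM) and in Plin2+/+ fasted livers (1.23 against 0.828 TPM). In Plin2+/+ fasted livers Hgf also had a higher mean than Lrat (8.19 TPM), though in 2 of 5 libraries only.

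**Figure D1:**
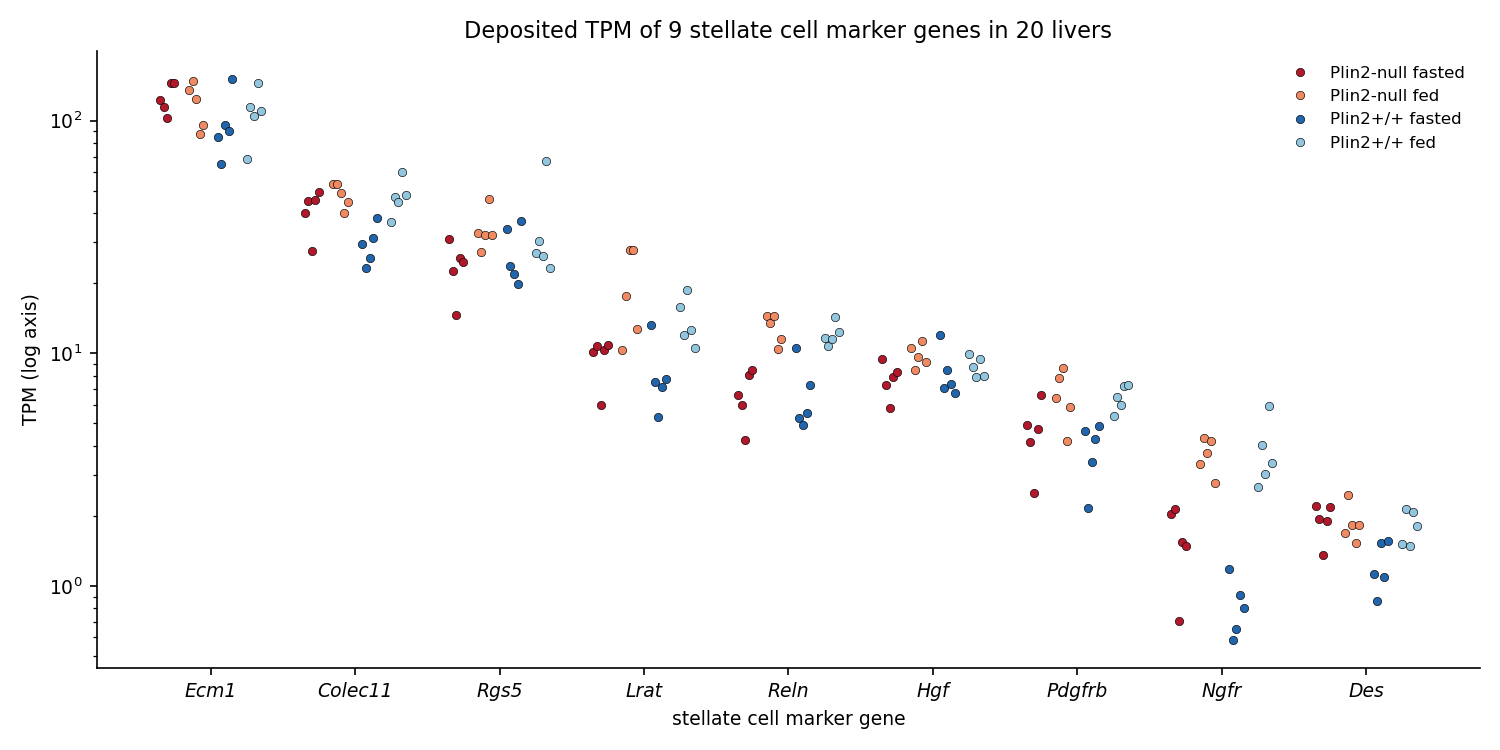
Deposited TPM of the 9 marker genes on a log axis, 1 point per library, with the 4 groups side by side within each gene and genes ordered by their mean over 20 libraries. Ecm1 lies highest, between 65.0 and 151.2 TPM, and Ngfr and Des lie lowest.

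All 9 genes lie on GRCm38 as annotated in GENCODE M21. Lrat (ENSMUSG00000028003) is on chromosome 3 (82892579 to 82903973, minus strand), Ngfr (ENSMUSG00000000120) on chromosome 11 (95568818 to 95587735, minus), Pdgfrb (ENSMUSG00000024620) on chromosome 18 (61045150 to 61085061, plus) and Hgf (ENSMUSG00000028864) on chromosome 5 (16553495 to 16620152, plus). Reln (ENSMUSG00000042453) is on chromosome 5 (21884454 to 22344702, minus), Colec11 (ENSMUSG00000036655) on chromosome 12 (28594173 to 28623377, minus), Ecm1 (ENSMUSG00000028108) on chromosome 3 (95734147 to 95739569, minus), Des (ENSMUSG00000026208) on chromosome 1 (75360329 to 75368579, plus) and Rgs5 (ENSMUSG00000026678) on chromosome 1 (169655501 to 169695813, plus). Exons of other annotated genes overlap those of Des, Reln, Ecm1 and Hgf. These neighbours had 0 counts in all libraries, except a transcript to be experimentally verified over 484 bases of Hgf, which had 90 counts in all.

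Fasting lowered part of the marker genes in both genotypes. Against fed livers of the same genotype, 3 of 9 fell in Plin2-null fasted livers (Ngfr, Lrat and Reln) and 5 of 9 fell in Plin2+/+ fasted livers (Ngfr, Lrat, Reln, Colec11 and Pdgfrb), at an adjusted p under 0.05 in edgeR's quasi-likelihood test over all 16312 genes. None rose in either genotype. The median log2 fold change of the 9 genes was −0.26 in Plin2-null and −0.53 in Plin2+/+ mice, where the median over all genes was −0.01 in each. Fasting moved much of the transcriptome, with 36.1% of all genes called in Plin2-null mice (18.0% higher and 18.1% lower) and 42.6% in Plin2+/+ mice (20.9% higher and 21.7% lower), so that being called is no rare property here. The call split over all genes was 2942 higher and 2954 lower in Plin2-null and 3416 higher and 3541 lower in Plin2+/+ mice. With library size as the only scaling it was 1376 higher and 4243 lower in Plin2-null and 1854 higher and 4173 lower in Plin2+/+ mice, as the median over all genes moved to −0.21 and −0.16. In bulk liver, fewer stellate cells and less of a transcript per cell cannot be told apart.

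**Figure D2:**
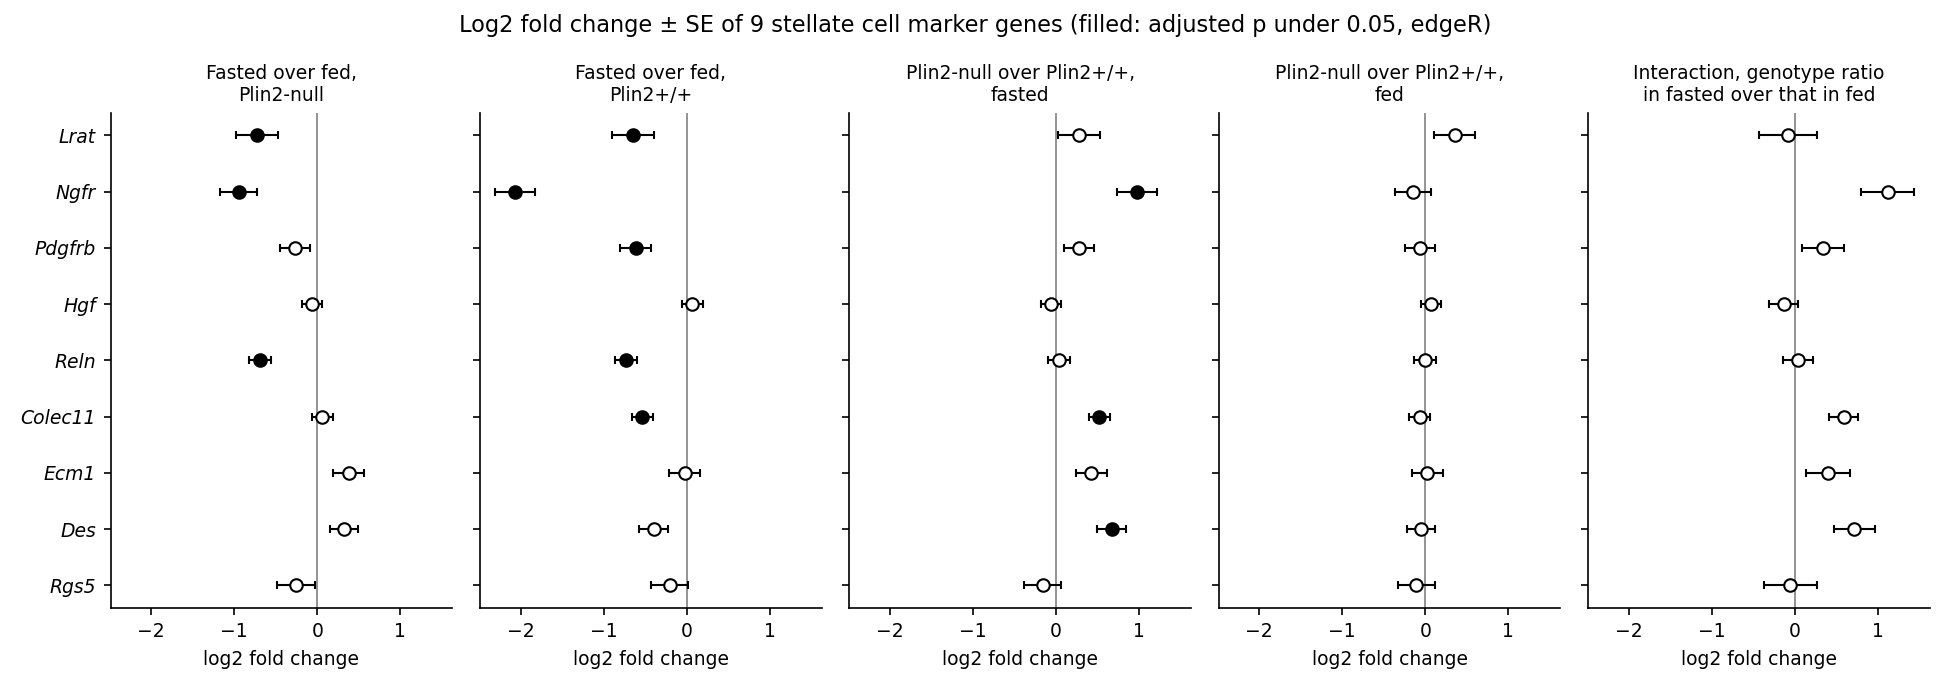
Log2 fold change with its SE for each marker gene in the 4 pairwise comparisons and the interaction, with filled points for an adjusted p under 0.05 in edgeR. Ngfr, Lrat and Reln are filled and below 0 for fasting in both genotypes, and Ngfr, Colec11 and Des are filled and above 0 for genotype in fasted livers.

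Lrat encodes lecithin retinol acyltransferase, the enzyme that esterifies retinol for storage. Its levels were 22.5, 26.1, 19.6, 20.2 and 22.2 CPM in Plin2-null fasted livers, against 20.1, 31.8, 54.8, 51.5 and 24.3 CPM in Plin2-null fed livers. In Plin2+/+ mice they were 25.5, 19.9, 13.0, 17.2 and 15.5 CPM in fasted livers, against 30.0, 24.7, 42.0, 24.9 and 20.9 CPM in fed livers. The groups overlapped in both genotypes, and the fed libraries 3 and 4 of the Plin2-null mice and fed library 3 of the Plin2+/+ mice stood above the others of their group. Lrat fell by 0.72 ± 0.25 on the log2 scale in Plin2-null (SE, adjusted p = 0.0287 in edgeR) and fell by 0.65 ± 0.25 in Plin2+/+ livers (adjusted p = 0.0433). Both calls were close to the threshold. In Plin2-null mice the call was lost without fed library 3 (adjusted p = 0.0987), without fed library 4 (0.0891), and without fasted library 3, 4 or 5 (0.0575, 0.0572 and 0.0501). In Plin2+/+ mice it was lost without fed library 1 or 3 (0.0717 and 0.141) and without fasted library 2, 3, 4 or 5 (0.0517, 0.112, 0.0749 and 0.0895). Leaving out Plin2-null fasted library 1 or 5, which are not part of that comparison, also ended the call in Plin2+/+ mice (0.0513 and 0.0507). Such libraries act on it through the filter, the scaling, the shared spread and the adjustment over all genes.

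Ngfr encodes the p75 neurotrophin receptor and showed the steepest fall of the 9 genes. It stood at 2.90, 3.35, 1.48, 1.93 and 1.96 CPM in Plin2-null fasted livers, against 4.23, 5.03, 4.71, 5.05 and 3.41 CPM in Plin2-null fed livers. In Plin2+/+ mice the values were 1.47, 0.996, 1.03, 1.42 and 1.03 CPM in fasted livers, against 3.26, 5.35, 4.38, 7.55 and 4.34 CPM in fed livers. Every fasted library lay below every fed library of its genotype, a pattern that 11.8% of all genes showed in Plin2-null and 13.5% in Plin2+/+ mice. Groups were apart in either direction for 24.5% of all genes in Plin2-null and 26.7% in Plin2+/+ mice, where 13.2% were apart upwards. Ngfr was 1.93-fold lower in Plin2-null fasted livers (log2 fold change −0.95 ± 0.22, adjusted p = 0.00212) and 4.19-fold lower in Plin2+/+ fasted livers (−2.07 ± 0.24, adjusted p = 4.28e-07). These levels rest on few reads, 33 to 117 counts per fasted library and 146 to 301 per fed library. Both calls held under every other setting tried and on leaving out each library in turn.

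Pdgfrb encodes the beta receptor for platelet-derived growth factors. In Plin2-null mice it stood at 11.2, 10.3, 8.36, 9.40 and 14.0 CPM in fasted livers, against 12.9, 14.5, 17.4, 7.98 and 11.6 CPM in fed livers. Plin2+/+ fasted livers had 9.18, 5.86, 8.58, 10.5 and 9.97 CPM, against 10.4, 13.7, 13.7, 14.6 and 14.9 CPM in Plin2+/+ fed livers. The fasted and fed libraries of the Plin2-null mice were intermixed, while 4 of 5 Plin2+/+ fasted libraries lay below all fed libraries. Its log2 fold change on fasting was −0.27 ± 0.18 in Plin2-null (adjusted p = 0.258), and Pdgfrb fell by 0.61 ± 0.18 in Plin2+/+ livers (adjusted p = 0.00984, edgeR). The difference between these fasting effects was 0.34 ± 0.26 on the log2 scale and did not pass the test of the interaction (adjusted p = 0.540).

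Hgf encodes hepatocyte growth factor, the ligand of the MET receptor on hepatocytes. Its group means lay between 24.0 and 25.2 CPM, with 24.2 ± 2.84 in Plin2-null fasted, 25.2 ± 3.14 in Plin2-null fed, 25.1 ± 4.8 in Plin2+/+ fasted and 24.0 ± 1.49 CPM in Plin2+/+ fed livers (SD, n = 5 each). No comparison called Hgf. Within 2 SE and under TMM scaling, its log2 fold change on fasting lay between −0.31 and 0.18 in Plin2-null and between −0.18 and 0.31 in Plin2+/+ mice. Counts of 554 to 1437 per library stood behind these values. By the deposited TPM the fasted mean of Hgf was the lower one in both genotypes. It was 7.75 fasted against 9.84 fed in Plin2-null and 8.31 against 8.79 TPM in Plin2+/+ mice. The direction in Plin2+/+ mice thus depended on the scaling.

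Reln encodes reelin, a large secreted glycoprotein best known from the brain. In Plin2-null mice it stood at 65.3, 64.1, 61.1, 69.8 and 77.3 CPM in fasted livers, against 125.5, 108.3, 126.3, 86.4 and 98.1 CPM in fed livers. Plin2+/+ fasted livers had 90.4, 61.4, 53.4, 58.9 and 64.7 CPM, against 97.4, 98.2, 115.0, 125.8 and 109.6 CPM in Plin2+/+ fed livers. As for Ngfr, no fasted library reached the level of any fed library of its genotype. Reln was 1.61-fold lower on fasting in Plin2-null (log2 fold change −0.69 ± 0.13, adjusted p = 3.01e-04) and 1.66-fold lower in Plin2+/+ mice (−0.73 ± 0.13, adjusted p = 1.24e-04), and both calls held under every other setting tried and without any single library. The 2 effects differed by 0.04 ± 0.19 (adjusted p of the interaction = 0.937), an interval of −0.33 to 0.41 within 2 SE.

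Colec11 encodes collectin-11, a soluble lectin that can start the lectin pathway of complement. Plin2-null fasted livers had 26.9, 32.9, 27.1, 26.9 and 30.7 CPM, against 31.6, 29.3, 29.1, 22.6 and 26.0 CPM in Plin2-null fed livers. Plin2+/+ fasted livers had 17.3, 18.5, 19.1, 22.8 and 23.1 CPM, against 21.1, 29.4, 30.3, 35.9 and 28.9 CPM in Plin2+/+ fed livers. Only fed library 1 of the Plin2+/+ mice reached down into the range of its fasted group. The log2 fold change on fasting was 0.06 ± 0.13 in Plin2-null livers (adjusted p = 0.747, edgeR). Its direction depended on the scaling, as the deposited TPM averaged 41.4 in Plin2-null fasted against 48.0 in Plin2-null fed livers. Colec11 fell by 0.53 ± 0.13 in Plin2+/+ livers (adjusted p = 0.00166, edgeR), a call that held under every other setting tried and without any single library.

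Ecm1 did not pass the test for fasting in either genotype. It had 128.1, 129.9, 157.3, 132.4 and 140.3 CPM in Plin2-null fasted livers, against 125.2, 126.7, 115.0, 76.7 and 86.2 CPM in Plin2-null fed livers. Every Plin2-null fasted library lay above every fed one, as for 12.6% of all genes, by a narrow gap to fed libraries 1 and 2. The log2 fold change was 0.38 ± 0.19 (adjusted p = 0.121). It passed the test with the compared groups fitted alone (0.37, adjusted p = 0.0485), and was 0.16 with library size as the only scaling. In Plin2+/+ mice Ecm1 averaged 102.5 ± 26.4 CPM in fasted and 104.3 ± 26.9 CPM in fed livers (SD, n = 5 each), a log2 fold change of −0.02 ± 0.19.

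Des encodes desmin, the intermediate filament protein by which stellate cells are often stained in rodents. Plin2-null fasted livers had 3.44, 3.29, 3.11, 2.58 and 3.14 CPM, against 2.32, 3.14, 2.52, 1.99 and 2.45 CPM in Plin2-null fed livers. Plin2+/+ fasted livers had 1.51, 1.60, 2.63, 1.84 and 2.195 CPM, against 2.01, 3.10, 2.35, 2.88 and 2.53 CPM in Plin2+/+ fed livers. The groups overlapped in both genotypes. The log2 fold change on fasting was 0.32 ± 0.17 in Plin2-null (adjusted p = 0.147) and −0.40 ± 0.17 in Plin2+/+ mice (adjusted p = 0.0676), so Des passed in neither, with 43 to 154 counts per library. In Plin2+/+ mice it did pass with library size alone (−0.56, adjusted p = 0.0250), with the stricter filter (−0.42, adjusted p = 0.0481), on log2(TPM + 1) and log2(TPM + 0.1) (adjusted p = 0.0461 and 0.0377), without fed library 1 (−0.48, adjusted p = 0.0368) and without fasted library 3 (−0.53, adjusted p = 0.0220).

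Rgs5 encodes a regulator of G protein signalling that marks pericytes and stellate cells. It averaged 46.2 ± 7.19 CPM in Plin2-null fasted, 55.1 ± 11.1 in Plin2-null fed, 51.6 ± 8.90 in Plin2+/+ fasted and 59.5 ± 29.9 CPM in Plin2+/+ fed livers (SD, n = 5 each). Plin2+/+ fed library 4, at 112.1 CPM, stood far above the other libraries of its group, which held 39.4 to 53.1 CPM. No comparison called Rgs5, with a log2 fold change on fasting of −0.26 ± 0.22 in Plin2-null (adjusted p = 0.396) and −0.20 ± 0.22 in Plin2+/+ mice (adjusted p = 0.487). Without that library the Plin2+/+ value was 0.14.

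**Figure D3:**
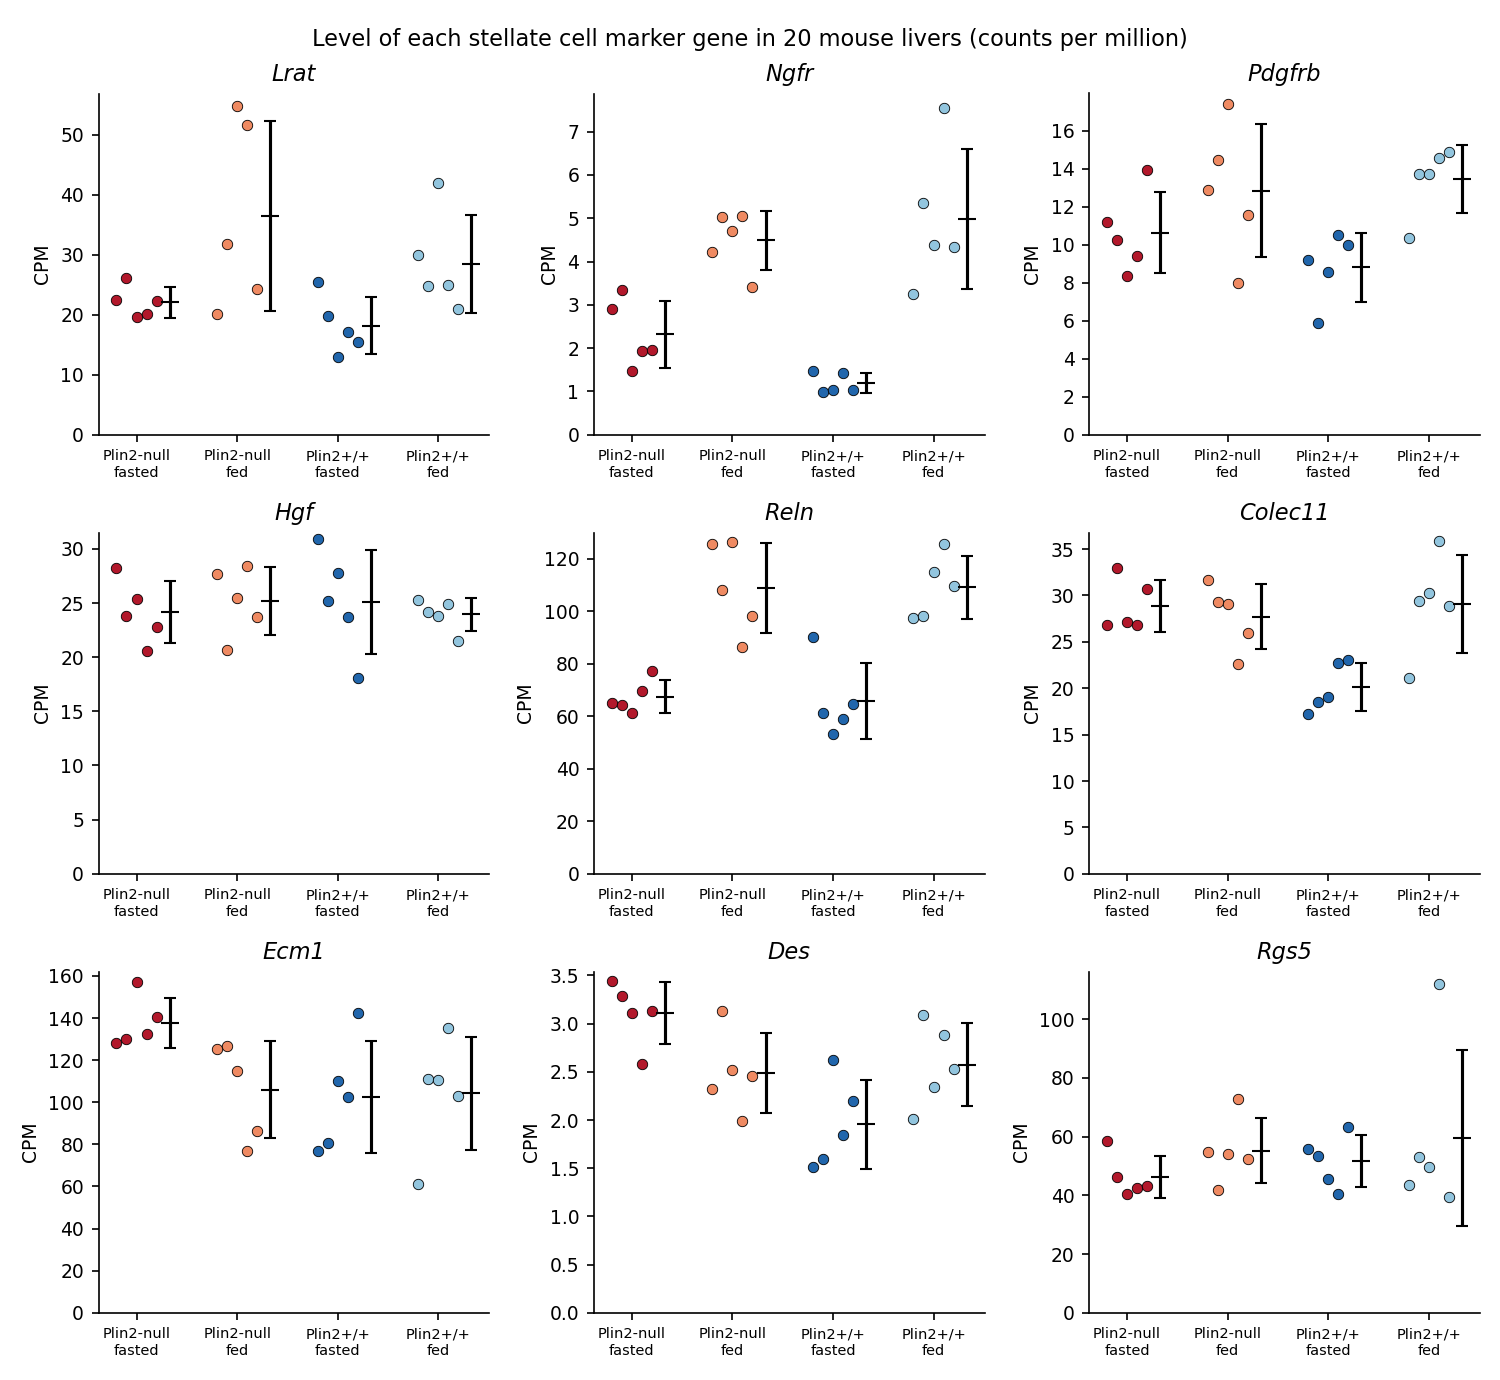
CPM of each marker gene, 1 point per library, with the group mean and SD (n = 5) beside the points and the vertical axis starting at 0. Fasted points of Ngfr and Reln lie below the fed points of the same genotype, and Plin2-null fasted points of Ngfr and Colec11 lie above the Plin2+/+ fasted points.

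Between the genotypes, fasted livers differed in 3 of the 9 genes, all higher in Plin2-null than in Plin2+/+ mice: Ngfr 1.96-fold, Des 1.59-fold and Colec11 1.44-fold. Over all genes, 3.24% were called in this comparison, 1.51% higher and 1.73% lower. The median log2 fold change of the 9 genes was 0.28, beside 0.02 over all genes. Ngfr averaged 2.32 ± 0.771 CPM in Plin2-null fasted and 1.19 ± 0.232 CPM in Plin2+/+ fasted livers (log2 fold change 0.97 ± 0.24, adjusted p = 0.0334). Des averaged 3.11 ± 0.325 CPM in Plin2-null fasted and 1.96 ± 0.459 CPM in Plin2+/+ fasted livers (0.67 ± 0.17, adjusted p = 0.0407). Colec11 averaged 28.9 ± 2.77 CPM in Plin2-null fasted and 20.1 ± 2.63 CPM in Plin2+/+ fasted livers (SD, n = 5 each; 0.52 ± 0.13, adjusted p = 0.0318, edgeR). All 5 Plin2-null libraries lay above all Plin2+/+ libraries for Ngfr and Colec11, which 1.87% of all genes did (2.21% lay apart downwards and 4.08% in either direction), and 4 of 5 did so for Des. The fasted Plin2-null and the fasted Plin2+/+ libraries of this comparison are those of the fasting comparisons, so these differences share their samples with the fasting effects given above.

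The 3 calls between fasted genotypes depended on single libraries and on the setting. Leaving out Plin2+/+ fasted library 1, 2 or 3 gave Ngfr adjusted p-values of 0.0576, 0.107 and 0.0794, and leaving out Plin2-null fasted library 1, 2 or 5 gave 0.0669, 0.0652 and 0.0687. Des lost its call without Plin2+/+ fasted library 1 or 2 (0.106 and 0.135), without Plin2-null fasted library 1, 2, 3 or 5 (0.0733, 0.0620, 0.0832 and 0.104), and without fed library 3 of the Plin2-null (0.0522) or the Plin2+/+ mice (0.0518). Colec11 lost it without Plin2+/+ fasted library 1, 2 or 3 (0.0864, 0.107 and 0.0737) and without Plin2-null fasted library 2, 3 or 5 (0.0577, 0.0640 and 0.0964). The differences themselves stayed positive throughout, between 0.81 and 1.09 for Ngfr, 0.59 and 0.80 for Des, and 0.47 and 0.58 for Colec11 on the log2 scale. With each library's GC trend removed, Ngfr differed by 0.63 (adjusted p = 0.225) and Des by 0.44 (adjusted p = 0.112), and Colec11 alone kept its call. On log2(TPM + 1) none of the 3 passed, at adjusted p-values of 0.241 for Ngfr, 0.191 for Des and 0.221 for Colec11.

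The other 6 genes did not pass between fasted genotypes. Ecm1 came nearest, with 137.6 ± 11.9 CPM in Plin2-null fasted and 102.5 ± 26.4 CPM in Plin2+/+ fasted livers (SD, n = 5 each; log2 fold change 0.42 ± 0.19, adjusted p = 0.171), and it passed without Plin2+/+ fasted library 5 (0.57, adjusted p = 0.0495). Lrat had a log2 fold change of 0.28 ± 0.25, Pdgfrb 0.28 ± 0.18, Reln 0.04 ± 0.13, Hgf −0.06 ± 0.12 and Rgs5 −0.16 ± 0.22. Between −0.23 and 0.30 for Reln, and between −0.30 and 0.19 for Hgf, the intervals of 2 SE were the narrowest of these 5.

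In fed livers the genotypes did not differ in any of the 9 genes by edgeR, where 0.0184% of all genes were called (0.0123% higher and 0.00613% lower), and no marker gene had groups that did not overlap, as 0.877% of all genes had (0.423% upwards and 0.454% downwards). The log2 fold changes ran from −0.15 for Ngfr to 0.36 for Lrat, the smallest adjusted p was 1.00, and 0 of 9 had an unadjusted p under 0.05. DESeq2 and limma also called 0 of 9. Lrat, with the widest SE of the 9 in this comparison, had 36.5 ± 15.8 CPM in Plin2-null fed and 28.5 ± 8.19 CPM in Plin2+/+ fed livers (SD, n = 5 each; 0.36 ± 0.25). Within 2 SE, the log2 fold change of Reln between fed genotypes lay between −0.27 and 0.26 and that of Colec11 between −0.32 and 0.18.

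The interaction sets the genotype difference of fasted livers against that of fed ones (fasted minus fed) and called 0 of 9 marker genes and 0.0% of all genes by edgeR, and DESeq2 called 63 genes, none of them a marker gene. At an unadjusted p under 0.05 there were 3 marker genes. Ngfr had an interaction of 1.12 ± 0.32, Des of 0.72 ± 0.24 and Colec11 of 0.59 ± 0.18 on the log2 scale, with adjusted p-values of 0.239, 0.253 and 0.239. The weaker fall of Ngfr in Plin2-null fasted livers was therefore not shown to differ from that in Plin2+/+ livers once all genes were adjusted for.

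**Figure D4:**
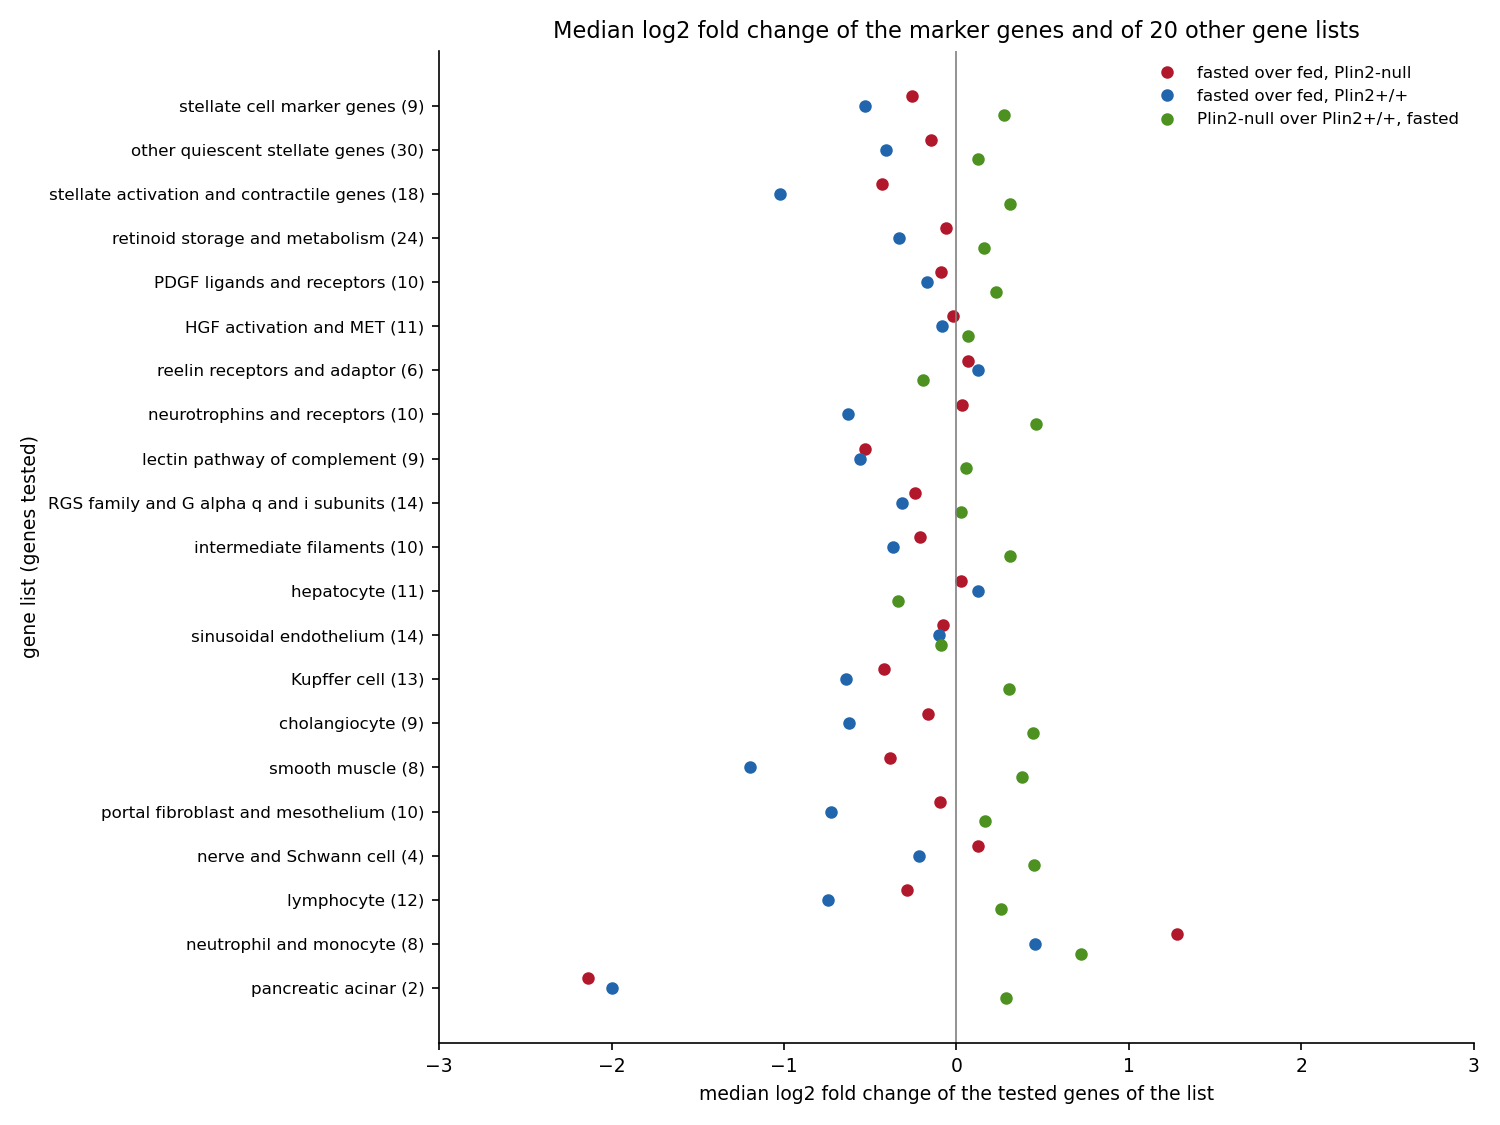
Median log2 fold change of the 9 marker genes and of the tested genes of 20 other lists in the 3 comparisons with called members. Marker genes, contractile genes and most lists of non-hepatocyte cells lie below 0 for fasting in Plin2+/+ mice, while the hepatocyte, reelin and neutrophil and monocyte lists lie above it (medians 0.13, 0.12 and 0.46, where library size alone gives −0.05 for hepatocyte and −0.04 for reelin genes).

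Other genes of quiescent stellate cells moved in both directions. Of 30 such genes, 7 rose and 7 fell in Plin2-null fasted livers (median log2 fold change −0.15), and 3 rose and 15 fell in Plin2+/+ fasted livers (median −0.41). With library size alone these counts were 3 and 12 in Plin2-null and 2 and 16 in Plin2+/+ mice. The summed level of the 30 genes went the other way, with 1542 to 1820 CPM in Plin2-null fasted against 1240 to 1536 CPM in Plin2-null fed livers, which did not overlap, and 1580 to 2255 CPM in Plin2+/+ fasted against 1356 to 1613 CPM in Plin2+/+ fed livers, which did. Tmem56 made up much of that sum, with means of 719.7 CPM in Plin2-null fasted, 275.2 in Plin2-null fed, 891.1 in Plin2+/+ fasted and 291.6 CPM in Plin2+/+ fed livers. The group means of Lrat ran from 18.2 in Plin2+/+ fasted to 36.5 CPM in Plin2-null fed livers. Which cells of the bulk liver held the Tmem56 transcript was not tested. Steap4, a metalloreductase, fell by 0.99 ± 0.11 in Plin2-null and fell by 1.09 ± 0.11 in Plin2+/+ mice (adjusted p = 4.68e-07 and 9.59e-08, edgeR). Tmem56 rose by 1.39 ± 0.15 in Plin2-null and 1.61 ± 0.15 in Plin2+/+ mice. Between fasted genotypes 2 of the 30 were higher in Plin2-null mice, Pth1r, the parathyroid hormone receptor, by 1.00 ± 0.25 (adjusted p = 0.0383) and Tgfbi by 0.46 ± 0.11 (adjusted p = 0.0371), and neither was called with library size alone or with the GC trend removed.

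Genes of activated, contractile and collagen-forming stellate cells fell more often than they rose. Of 18 tested, 3 rose and 8 fell in Plin2-null fasted livers (median −0.43), and 2 rose and 12 fell in Plin2+/+ fasted livers (median −1.02). Col3a1, a chain of fibrillar collagen, fell by 2.28 ± 0.29 in Plin2-null and fell by 3.09 ± 0.30 in Plin2+/+ mice (adjusted p = 5.52e-06 and 1.46e-07). Col1a1 fell by 0.99 ± 0.31 in Plin2-null and fell by 2.12 ± 0.32 in Plin2+/+ mice. Pdgfra, the alpha receptor for platelet-derived growth factors, rose by 1.01 ± 0.13 in Plin2-null and by 1.18 ± 0.13 in Plin2+/+ mice, opposite in sign to Pdgfrb. Ccn2, a matricellular protein, rose by 3.10 ± 0.60 in Plin2-null and by 2.50 ± 0.58 in Plin2+/+ mice. Between fasted genotypes Tgfb1 alone was called of these 18, higher by 0.55 ± 0.15 in Plin2-null mice (adjusted p = 0.0491), and it was not called with library size alone or with the GC trend removed.

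Around Lrat, the retinoid list of 24 tested genes had 6 higher and 8 lower in Plin2-null fasted livers (median −0.06) and 4 higher and 12 lower in Plin2+/+ fasted livers (median −0.33). Rbp4, the carrier that takes retinol from the liver to the blood, rose by 1.14 ± 0.12 in Plin2-null and by 1.06 ± 0.12 in Plin2+/+ mice (adjusted p = 1.45e-07 and 2.80e-07, edgeR). Rdh11, a retinal reductase, fell by 2.43 ± 0.23 in Plin2-null and fell by 2.18 ± 0.22 in Plin2+/+ mice. Pnpla3, which has retinyl ester hydrolase activity in human stellate cells, fell by 4.15 ± 0.46 in Plin2-null and fell by 3.67 ± 0.45 in Plin2+/+ mice. Much of this list is expressed by hepatocytes too, and the summed level of its genes overlapped between all groups, with 6604 to 8692 CPM in Plin2-null fasted, 6951 to 7758 in Plin2-null fed, 6785 to 8724 in Plin2+/+ fasted and 7073 to 8685 CPM in Plin2+/+ fed livers. None of the 24 was called between the fasted genotypes.

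Around the receptors, 10 neurotrophin genes had 3 higher and 1 lower in Plin2-null fasted livers (median 0.03, and −0.17 with library size alone) and 3 higher and 5 lower in Plin2+/+ fasted livers (median −0.63). Sort1, sortilin, a partner of p75, fell by 1.32 ± 0.22 in Plin2-null and fell by 1.84 ± 0.23 in Plin2+/+ mice (adjusted p = 8.87e-05 and 1.61e-06, edgeR). Of 10 genes of the PDGF system, 2 rose and 3 fell in Plin2-null (median −0.09) and 1 rose and 4 fell in Plin2+/+ mice (median −0.17). Pdgfc, a ligand, fell by 0.89 ± 0.21 in Plin2-null and fell by 1.42 ± 0.22 in Plin2+/+ mice. No gene of either list was called between the fasted genotypes.

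Around the secreted proteins, 11 genes of HGF activation and MET had 1 higher and 0 lower in Plin2-null (St14, median −0.02) and 1 higher and 1 lower in Plin2+/+ fasted livers (median −0.08). Hgfac, a protease that activates pro-HGF, fell by 1.10 ± 0.21 in Plin2+/+ mice and was higher by 0.79 ± 0.20 in Plin2-null than in Plin2+/+ fasted livers (adjusted p = 1.99e-04 and 0.0429), the genotype call ending with library size alone. Of 6 tested reelin receptors and adaptors, 0 rose and 1 fell in Plin2-null (median 0.07) and 2 rose and 2 fell in Plin2+/+ mice (median 0.12), medians that were −0.15 and −0.04 with library size alone, the kinase gene Fyn falling by 0.35 ± 0.10 in Plin2-null and by 0.55 ± 0.10 in Plin2+/+ mice. Crkl of this list was lower by 0.46 in Plin2-null than in Plin2+/+ fasted livers (−0.46 ± 0.12, adjusted p = 0.0443), a call that ended with library size alone and with the GC trend removed. Of 9 lectin pathway genes, 5 fell and 0 rose in each genotype (medians −0.53 in Plin2-null and −0.56 in Plin2+/+), among them Mbl2, mannose-binding lectin, by 1.55 ± 0.13 in Plin2-null and by 1.42 ± 0.13 in Plin2+/+ mice.

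Around Des, 10 intermediate filament genes had 1 higher and 1 lower in Plin2-null (median −0.21) and 0 higher and 3 lower in Plin2+/+ fasted livers (median −0.37). Nes, nestin, fell by 1.06 ± 0.25 in Plin2-null and fell by 1.69 ± 0.25 in Plin2+/+ mice (adjusted p = 0.00187 and 1.40e-05, edgeR). Around Rgs5, 14 genes of RGS proteins and G alpha subunits had 4 higher and 3 lower in Plin2-null (median −0.24) and 3 higher and 5 lower in Plin2+/+ fasted livers (median −0.31). Rgs16 rose by 3.94 ± 0.87 in Plin2-null and by 4.55 ± 0.89 in Plin2+/+ mice. Rgs12 was higher by 0.84 ± 0.22 in Plin2-null than in Plin2+/+ fasted livers (adjusted p = 0.0402), and was called neither with library size alone nor with the GC trend removed.

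Markers of several other non-hepatocyte cells moved beside the stellate genes, with more calls in Plin2+/+ than in Plin2-null mice. The interaction called 0 genes of these lists by edgeR, so their fasting effects were not shown to differ between the genotypes. The part of these markers in the result was not tested. Over all genes, 21.7% fell and 20.9% rose in Plin2+/+ fasted livers, and 18.1% fell and 18.0% rose in Plin2-null fasted livers. In Plin2+/+ fasted livers 6 of 8 smooth muscle genes fell and 1 rose (median −1.20), 5 of 9 cholangiocyte genes fell (median −0.63), 9 of 13 Kupffer cell genes fell and 1 rose (median −0.64), 4 of 10 portal fibroblast and mesothelium genes fell (median −0.73) and 6 of 12 lymphocyte genes fell and 1 rose (median −0.74). In Plin2-null fasted livers the same lists had 1 lower and 1 higher for smooth muscle (median −0.38), 2 lower for cholangiocytes (median −0.16), 6 lower and 1 higher for Kupffer cells (median −0.42), 0 called for portal fibroblasts (median −0.10) and 1 lower for lymphocytes (median −0.29). Sinusoidal endothelial genes had 3 higher and 3 lower of 14 in Plin2-null (median −0.08) and 4 higher and 4 lower in Plin2+/+ mice (median −0.10). Hepatocyte genes had 1 higher and 2 lower of 11 in Plin2-null (median 0.03) and 4 higher and 2 lower in Plin2+/+ mice (median 0.13), medians that were −0.21 and −0.05 with library size alone.

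Summed levels of these lists overlapped between fasted and fed livers, except for cholangiocyte genes in both genotypes and lymphocyte genes in Plin2+/+ mice. Smooth muscle genes summed to 18.5 to 29.7 CPM in Plin2-null fasted, 20.4 to 36.2 in Plin2-null fed, 15.4 to 25.1 in Plin2+/+ fasted and 23.7 to 48.4 CPM in Plin2+/+ fed livers. Cholangiocyte genes summed to 32.9 to 43.5 CPM in Plin2-null fasted, 54.1 to 72.6 in Plin2-null fed, 23.3 to 38.2 in Plin2+/+ fasted and 56.2 to 75.5 CPM in Plin2+/+ fed livers. Kupffer cell genes summed to 435.0 to 541.6 CPM in Plin2-null fasted, 415.9 to 946.0 in Plin2-null fed, 314.0 to 539.0 in Plin2+/+ fasted and 503.9 to 678.5 CPM in Plin2+/+ fed livers. Portal fibroblast genes summed to 9.93 to 21.3 CPM in Plin2-null fasted, 10.1 to 26.5 in Plin2-null fed, 6.65 to 20.8 in Plin2+/+ fasted and 15.8 to 25.2 CPM in Plin2+/+ fed livers. Lymphocyte genes summed to 5.52 to 7.99 CPM in Plin2-null fasted, 6.75 to 9.70 in Plin2-null fed, 4.42 to 6.17 in Plin2+/+ fasted and 8.42 to 10.5 CPM in Plin2+/+ fed livers.

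Nerve cell markers were near the limit of detection. Of 9 listed nerve and Schwann cell genes 4 were tested, Th had 0 counts in every library, Sox10 had 0 counts in 3 of the 4 groups, and the summed level was 2.08 to 3.41 CPM over all libraries. Mbp alone was called, and fell by 0.91 ± 0.21 in Plin2+/+ fasted livers (adjusted p = 0.00114, edgeR). Neutrophil and monocyte genes had 4 of 8 higher in Plin2-null (median 1.28) and 4 higher and 2 lower in Plin2+/+ fasted livers (median 0.46). Of 10 pancreatic acinar genes only 2 were tested, and these 2 fell in both genotypes (medians −2.14 in Plin2-null and −1.996 in Plin2+/+). The medians speak for these 2 genes alone, since Cela3b, Cpb1, Amy2b and Try4 had 0 counts in every library.

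Between the fasted genotypes the median log2 fold change was also above 0 for cholangiocyte (0.45), smooth muscle (0.38), Kupffer cell (0.30), lymphocyte (0.26), portal fibroblast (0.17), nerve and Schwann cell (0.45) and neutrophil and monocyte genes (0.72), the last being the largest of the cell type lists, beside 0.28 for the stellate marker genes and 0.02 over all genes. It was −0.34 for hepatocyte and −0.09 for sinusoidal endothelial genes. Of all these genes, Ms4a1 of B cells was called higher by 1.44 ± 0.38 (adjusted p = 0.0437), S100a9 by 1.42 ± 0.23 and S100a8 by 1.29 ± 0.32 in Plin2-null mice, and Cps1 of hepatocytes was called lower (−0.97 ± 0.23, adjusted p = 0.0318). With library size alone 0 lymphocyte genes and 1 neutrophil and monocyte gene were called. With the GC trend removed, the median was 0.13 for the stellate marker genes, 0.15 for Kupffer cell and 0.28 for smooth muscle genes. It was then 0.15 for portal fibroblast, 0.37 for lymphocyte, 0.45 for cholangiocyte, 0.47 for nerve and Schwann cell and 0.68 for neutrophil and monocyte genes. Under TMM scaling alone, the 30 other quiescent stellate genes had a median of 0.13 and the 18 activation and contractile genes 0.31. Whether the shifts of other cell types contributed to the differences of Ngfr, Des and Colec11 was not tested.

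Among libraries of the same feeding state, few marker genes varied together. The 36 pairs were compared over the 10 fasted and over the 10 fed libraries apart, with log2 CPM centred on the group mean, and p-values were adjusted over all 72 relations. Colec11 and Ecm1 in fed livers formed the only pair that passed by both coefficients, with a Pearson r of 0.975 (permutation p = 3e-05, adjusted 0.00216) and a Spearman rho of 0.952 (permutation p = 1.60e-04, adjusted 0.0115). Without the 2 libraries farthest from the median of Colec11 r was 0.900. In fasted livers the same pair had an r of 0.58. Lrat and Ecm1 in fasted livers had an r of −0.754 (permutation p = 0.0153, adjusted 0.146) and a rho of −0.891 (permutation p = 0.00116, adjusted 0.0418), with an r of −0.749 without the 2 farthest libraries. The median r over pairs was 0.10 in fasted livers, with 20 of 36 above 0, and 0.26 in fed livers, with 25 of 36 above 0.

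**Figure D5:**
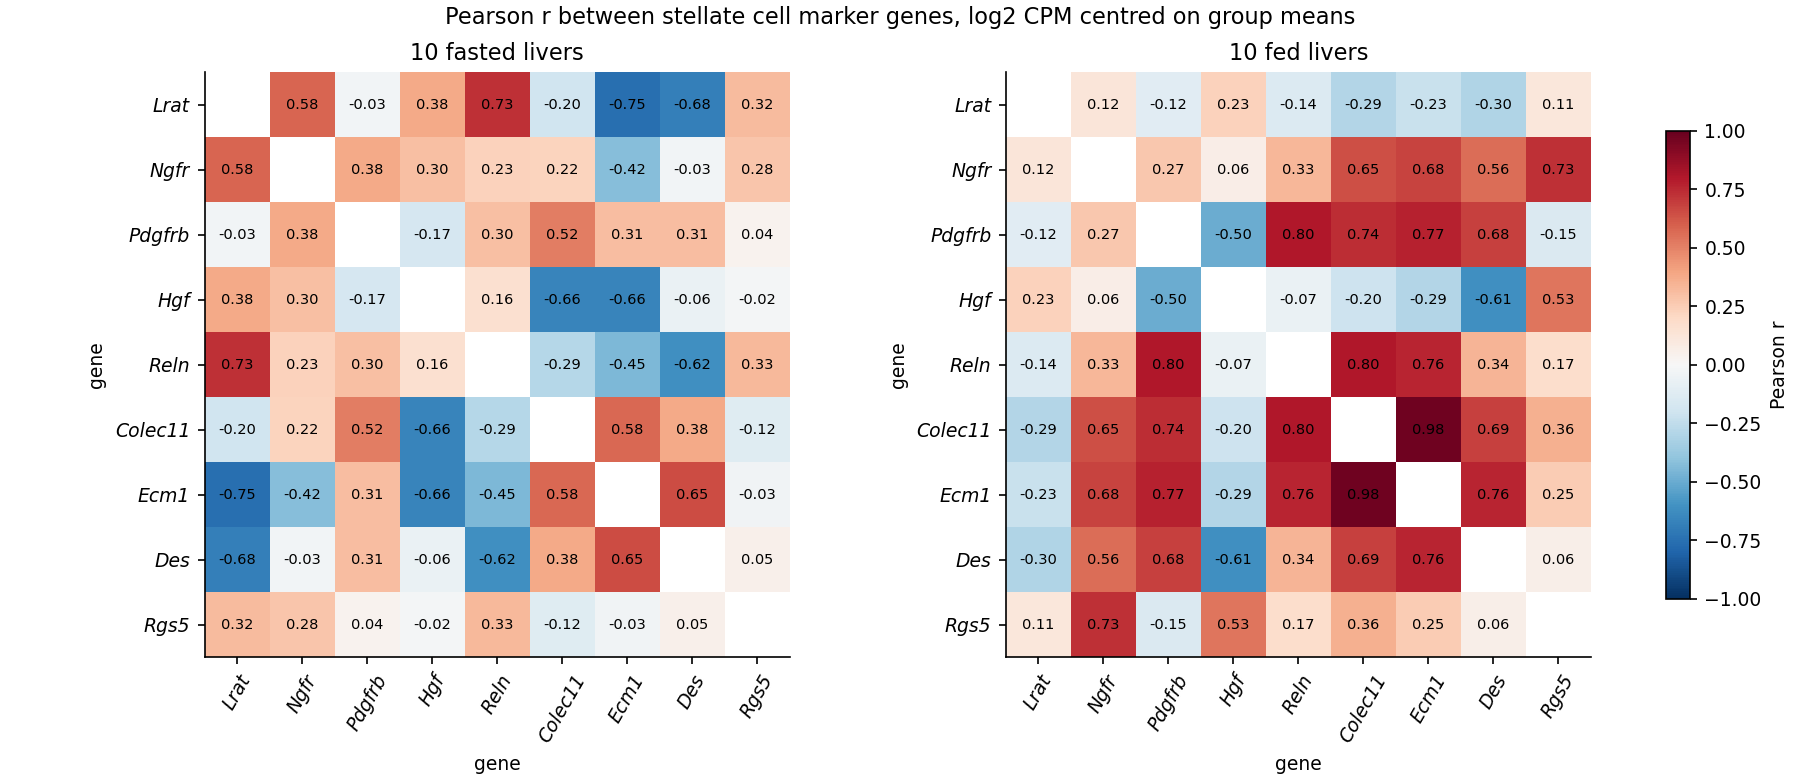
Pearson r for each pair of marker genes over 10 fasted (left) and 10 fed libraries (right), computed from log2 CPM centred on the group means. Colec11 and Ecm1 in fed livers reach 0.975, and Lrat and Ecm1 in fasted livers −0.754.

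The GC trend of a library moved with some of these levels. Over 18 relations between a marker gene's centred log2 CPM and the library's slope with GC content, 3 passed by Pearson's r and 0 passed by Spearman's rho after adjustment. Ecm1 had an r of 0.876 in fasted livers (permutation p = 8.50e-04, adjusted 0.0153; rho 0.746, permutation p = 0.0172, adjusted 0.118; r 0.712 without the 2 farthest libraries) and an r of 0.714 in fed livers (permutation p = 0.0198, adjusted 0.0594). Hgf had an r of −0.792 in fasted livers (permutation p = 0.00634, adjusted 0.0380; rho −0.746, adjusted 0.118; r −0.777 without the 2 farthest). Pdgfrb had an r of 0.792 in fed livers (permutation p = 0.00562, adjusted 0.0380; rho 0.612, adjusted 0.201), which rested on the 2 farthest libraries, as r was 0.255 without them. Colec11 in fed livers had an r of 0.634 (permutation p = 0.0471, adjusted 0.121) and −0.111 without the 2 farthest. Lrat in fasted livers had an r of −0.721 (permutation p = 0.018, adjusted 0.0594; rho −0.733, adjusted 0.118; r −0.766 without the 2 farthest), opposite in sign to Ecm1. The part of this trend in the pair of Colec11 and Ecm1, and in that of Lrat and Ecm1, was not tested.

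Likeness was sought among genes of at least 1 CPM, with predicted-gene and clone-type names left out. Of these, the genes outside the list that varied most like the mean of the 9 marker genes were Ccdc80 (Pearson r 0.891), Nid1 (0.822), Sparc (0.796), Tanc1 (0.790), Sod3 (0.776), Ggt5 (0.765), Ifitm1 (0.757), Gucy1a1 (0.744), Bbs9 (0.736) and Sox5 (0.724), over 20 libraries centred on their group means. These r describe likeness among genes of the same libraries and share the libraries' depth and GC trend. For single marker genes the nearest were Atp8b2 (0.903) for Ngfr, Pkm (0.939) for Ecm1, Wfdc1 (0.880) for Colec11, Col6a1 (0.870) for Pdgfrb, Eif3i (0.865) for Des, Sp3 (0.862) for Hgf, Zfp953 (0.839) for Lrat, Rgs4 (0.831) for Rgs5 and Susd1 (0.810) for Reln.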

How the data were processed

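Strand-specific libraries were prepared from the mRNA of each liver sample, as the labels' protocols state. Raw read counts, with 1 row per mouse Ensembl gene, and TPM, with rows named by gene symbol, are the values the authors deposited. Of 55493 TPM rows, 53096 were matched to a count row by a unique symbol, and TPM results rest on these. Reads were aligned with HISAT2 1.2.1 and counted with featureCounts 1.4.6-p1, per the submitters' processing notes, which list the human build GRCh38 although the identifiers are mouse, so the build is unclear. The annotation release was not given in the sources used here, nor was the strand option of the counting, and reads of antisense partners cannot be told apart with certainty. The TPM header stands 1 cell left of its values, and each of 20 columns followed its own library's counts.

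After filterByExpr and TMM scaling, 1 robust glmQLFit model in edgeR 4.0.16 (R 4.3.3) held all 20 libraries, with 1 coefficient per group. A gene was called in glmQLFTest when its p, adjusted by Benjamini-Hochberg, was under 0.05. Each SE is the fold change (log2) divided by the root of its F statistic. Correlations were computed on log2 CPM (prior count 2), with 100000 permutations, two-sided. Libraries were permuted over both genotypes of a feeding state after centring on the group means, so these p-values may be somewhat too small. Within groups 40 library pairs were compared, and none agreed within sampling noise (smallest chi-square per degree of freedom 45.3). The test was also run on counts simulated for fasting in Plin2-null mice (16190 genes). It found 31.3% of 67 genes altered 1.5-fold, 59.7% of 67 altered 2-fold and 92.4% of 66 altered 4-fold, and made 4 false calls. Far fewer genes were altered there than the 36.1% called for fasting in Plin2-null livers, which makes the adjustment stricter. These rates therefore do not carry over to the measured fasting comparison. Alternatives were DESeq2 1.42.0, limma voom (limma 3.58.1), RLE size factors, library size alone, no and a stricter filter (CPM above 1 in 5 libraries), limma on log2(TPM + 1) and log2(TPM + 0.1), the compared groups alone, each library left out, and removal of GC trends, which was added after seeing the data.

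The 9 members and all gene lists were chosen with earlier results of these data known. Named genes are the members, up to 4 genes per list and comparison (smallest adjusted p first), the 10 other genes of at least 1 CPM whose centred pattern is most like the members' mean, and those nearest to each member. Predicted-gene and clone-type names were left out of both searches for likeness. Positions are from GENCODE M21, promoter sequences from RefSeq (GRCm38.p6), where 8 of 9 members matched. Figures were drawn with matplotlib 3.10.9.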

Additional observations from a re-analysis of the deposited data

Results flagged for a closer look

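In 2 of the 36 sets of 5 libraries (9 marker genes in 4 groups), 1 library lay farther from the rest than Dixon's critical value of 0.710 allows for the gap over the group's range. Chance flags about 1 in 20 such sets. Rgs5 stood at 112.1 CPM in Plin2+/+ fed library 4, a gap of 0.811 of the range above the next library. Pdgfrb stood at 10.4 CPM in Plin2+/+ fed library 1, a gap of 0.741 of the range below the next.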

How the results depend on the processing

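No paired analysis was possible because titles give every library its own number and no label pairs libraries across groups. No marker gene called in any setting changed its sign. Over the other settings, 458 fold changes of marker genes kept their side of the threshold, 23 lost and 5 gained a call, and on leaving out 1 library 864 kept it, 33 lost and 3 gained it. The 3 marker genes called between fasted genotypes became 0 with library size alone, on log2(TPM + 1), log2(TPM + 0.1), log2(TPM + 1) without a filter and with the compared groups alone, and 1 with the GC trend removed, an alternative chosen after seeing the data. All genes called between fasted genotypes, 528, became 108 with library size alone, 319 without a filter, 1433 with DESeq2, 18, 13 and 12 in the TPM settings and 104 with the compared groups alone. Between fed genotypes 3 became 7 with DESeq2 and 6, 6 and 7 on TPM. For the interaction 0 became 1 without a filter, 63 with DESeq2 and 1 in each TPM setting. Leaving out each library gave 2 to 3 called members for fasting in Plin2-null, 4 to 5 for fasting in Plin2+/+, 0 to 4 between fasted genotypes, and 0 to 0 between fed genotypes and for the interaction. Over all genes it gave 5104 to 6051, 6147 to 7078, 13 to 1794, 3 to 4 and 0 to 1 in the same order. Lrat lost its call without a filter (adjusted p = 0.0600 in Plin2-null and 0.0900 in Plin2+/+ mice), with voom in Plin2-null (0.0522) and on log2(TPM + 1) without a filter in Plin2+/+ mice (0.0710), all by edgeR or limma. Ngfr lost its genotype call with voom (0.0586) and Des without a filter (0.0746). The group with the highest mean was Plin2-null fed by TPM and Plin2+/+ fed by CPM for Colec11, Reln and Pdgfrb. The cause was not tested in any of these. Few counts limit Ngfr and Des.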
